A study of Homo sapiens with 4 samples.

Results

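The lipid-sensing nuclear receptors are transcription factors whose activity is set by small lipophilic ligands. The 10 genes described here were chosen as a list of symbols: PPARA, PPARD, PPARG, NR1H2, NR1H3, NR1H4, NR0B2, NR1I2, RXRA and ESRRA, out of 62655 gene IDs in the count table. Each symbol matched 1 Ensembl gene ID, and all 10 passed the filter on low counts.

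Hep G2, the source of all libraries, is an established human liver cancer line often used in place of hepatocytes. Cells were seeded at 150000 per ml, received oleic acid-rich medium 24 h later so that they stored fat, and were transfected 24 h after that. One group received an oligonucleotide that mimics LysTTT-5'tRF, a fragment of the lysine tRNA with anticodon TTT, and the other a negative control oligonucleotide, with 2 libraries in each. All 4 libraries were thus lipid-loaded and transfected, harvested 24 h after transfection and selected for poly(A) RNA, and no library from cells without oleic acid or without transfection was analysed here. Whether the 2 libraries of a group stem from separate cultures is not stated. The p-values therefore rest on a spread between libraries that may be only technical.

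Lipid-sensing receptors work as a relay between the cell's lipids and its genes. The peroxisome proliferator-activated receptors (PPARs) bind fatty acids and their derivatives, the liver X receptors (LXRs) bind oxysterols, the farnesoid X receptor (FXR) binds bile acids, and the pregnane X receptor (PXR) binds drugs and some steroids. These bind DNA as dimers with a retinoid X receptor (RXR). In the hepatocyte they control the burning and storage of fat, the export of cholesterol, the synthesis of bile acids and the clearance of foreign compounds.

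Reads assigned to genes ranged from 15430539 to 18961222 per library. Count columns headed NC belong to the negative control. The other columns, headed by a number of unstated meaning, were assigned to the mimic as the remaining treatment, and libraries are numbered as in the column names. On principal component 1 (40.7% of the variance) mimic library 1 (-22.95) and control library 2 (26.04) stood at opposite ends, with mimic library 2 (-4.62) and control library 1 (1.53) between them. Each result that turned on one of these libraries is therefore given without it as well. Libraries of a group differed by more than counting noise (chi-square per degree of freedom 2.98 within the mimic and 3.94 within the control), so none was treated as a repeat deposit of another. The same value was 2.98 between mimic library 2 and control library 1, so these stood no further apart than the mimic libraries. Hepatocyte markers were abundant: 13 of 13 were tested, with a summed level from 51124 to 54007 CPM, the counts scaled to 1e6 reads of the TMM-adjusted library size.

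None of the 10 receptors passed the test between mimic and control. The count was 0 at an adjusted p under 0.05 (quasi-likelihood test of edgeR with p-values adjusted by Benjamini-Hochberg over 14464 genes), where 0.346% of all tested genes passed. At an unadjusted p under 0.05 there were 2 receptors, PPARG lower and NR1H4 higher with the mimic, where 9.43% of all tested genes lay under that value. With limma voom 0 passed after adjustment and 2 lay under 0.05 before it. With DESeq2 0 passed, but it gave an adjusted p only to PPARA (0.839) and RXRA (0.996) among the 10, and left the others, PPARG and NR1H4 included, without one. The 10 log2 fold changes ran from -0.20 to 0.35 with a median of -0.06, beside a median of 0.0011 over all genes tested. In 6 receptors the groups did not overlap, as in 39.1% of all tested genes. Of those 6, the mimic lay below the control in PPARG, PPARD, NR0B2 and ESRRA and above it in PPARA and NR1H4. Over all genes, 19.3% had the mimic below and 19.8% the mimic above. In these bulk libraries, fewer cells expressing a receptor and less of its RNA per cell cannot be told apart.

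**Figure D1:**
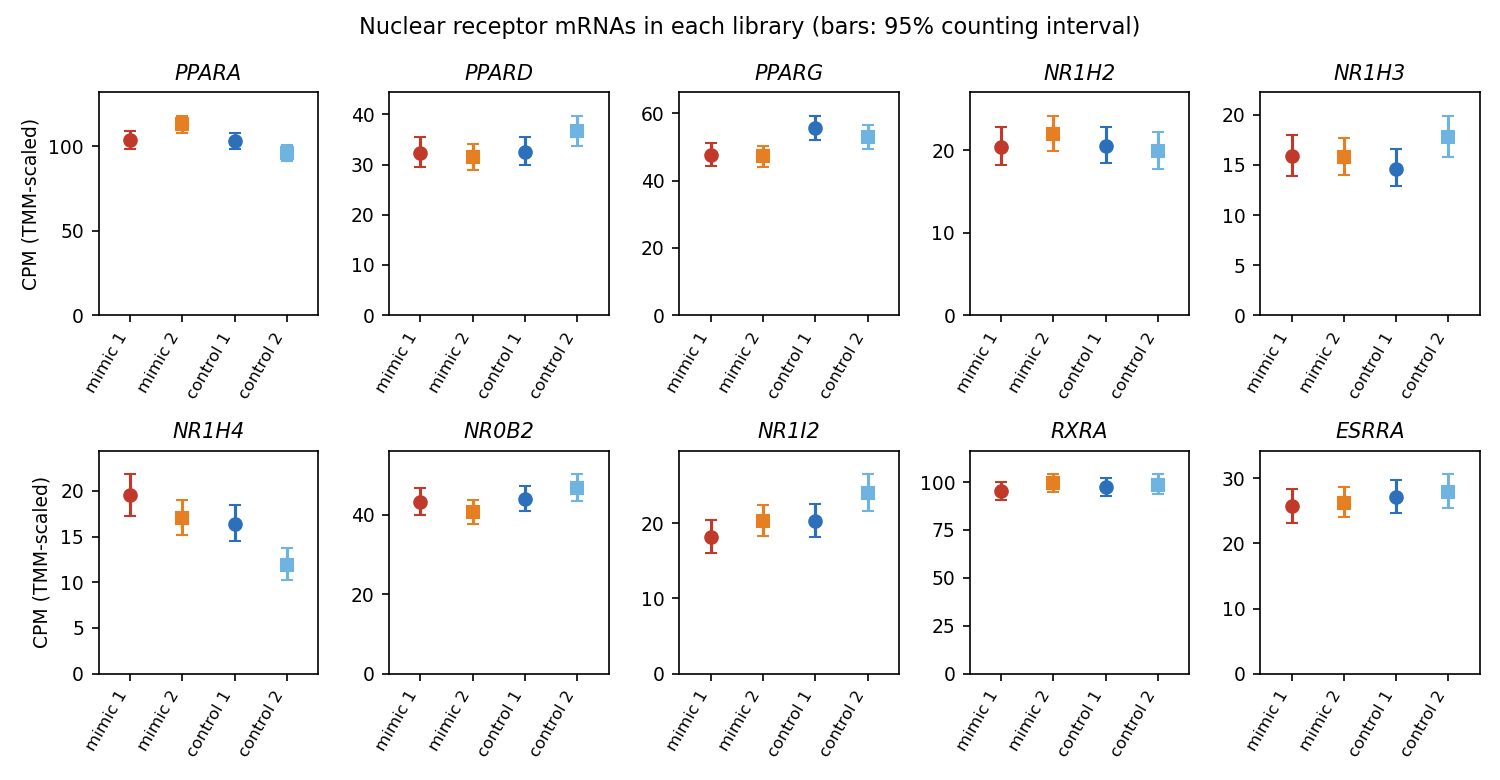
Level of each of the 10 receptor mRNAs (vertical axis from 0, CPM of the TMM-scaled library size) in the 4 libraries (horizontal axis; red and orange mimic, blue control). Bars are exact 95% Poisson intervals of the count and cover counting error only; NR1H4 spans 11.9 to 19.5 CPM, while RXRA stays between 95.4 and 99.4 CPM.

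PPARG and NR1H4 had the smallest p-values, and the sequences before their start sites are shown to place them in the genome. Each stretch is the 250 bases before a RefSeq start site on GRCh38.p14, plus strand, with the 6-base receptor half-site AGGTCA, or its reverse complement TGACCT, in capitals. The PPARG stretch lies at chr3:12287118-12287367, before the first of its 6 listed start sites, and the NR1H4 stretch at chr12:100503110-100503359, inside the span of the gene's longer transcripts. Neither overlaps an exon of GENCODE release 29.
PPARG: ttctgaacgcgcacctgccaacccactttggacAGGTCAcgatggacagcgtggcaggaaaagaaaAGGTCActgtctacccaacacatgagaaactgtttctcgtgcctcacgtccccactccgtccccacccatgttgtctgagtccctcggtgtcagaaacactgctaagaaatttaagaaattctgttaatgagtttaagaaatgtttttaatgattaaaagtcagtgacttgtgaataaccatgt
NR1H4: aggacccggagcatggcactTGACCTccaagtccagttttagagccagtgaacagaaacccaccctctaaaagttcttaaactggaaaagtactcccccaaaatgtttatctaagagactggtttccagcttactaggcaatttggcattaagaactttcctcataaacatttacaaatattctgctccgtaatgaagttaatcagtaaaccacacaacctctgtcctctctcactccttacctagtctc
The half-sites begin at -217 and -184 of the PPARG start and, on the opposite strand, at -230 of the NR1H4 start, counting the base before the start site as -1. Among the 9 receptors with a listed window, 3 (PPARG, NR1H3 and NR1H4) had such a match in at least 1 of their windows, beside 14.6% of 27305 genes over the table. They filled 5 of 20 windows, of which 2 at PPARG overlap and share the match. Over all 35116 windows of the same length, 12.1% held one. These matches are letters only, and the deposited counts, summed per gene, do not tell start sites apart.

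Among the fatty acid receptors, PPARG (ENSG00000132170, chr3:12287368-12434344, plus strand, RefSeq on GRCh38.p14) encodes the PPAR that drives fat storage and adipocyte formation. Its mRNA stood at 47.5 and 47.2 CPM in mimic libraries 1 and 2, against 55.5 and 53.0 CPM in control libraries 1 and 2. Both mimic libraries lay below both controls, and the 2 mimic libraries were nearly equal. The group levels were 47.4 ± 0.269 CPM with the mimic against 54.2 ± 1.77 CPM in the control libraries (mean and SD of 2 libraries per group). On the log2 scale the difference was -0.20 (SE 0.08, 95% interval -0.35 to -0.04), at an adjusted p of 0.40 in edgeR. Leaving out any one library gave -0.23 to -0.16.

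PPARA (ENSG00000186951, chr22:46150526-46243756) encodes the main hepatic PPAR, which switches on fatty acid oxidation and ketone body formation in fasting. It measured 104 and 113 CPM in mimic libraries 1 and 2, against 103 and 96.1 CPM in control libraries 1 and 2. The groups were separate only by the small gap between mimic library 1 and control library 1, whose counting intervals overlapped. The difference was 0.12 (log2, 95% interval -0.01 to 0.25), at an adjusted p of 0.577 in edgeR. It was 0.05 without mimic library 2 and 0.07 without control library 2, and 0.18 and 0.17 without mimic library 1 and control library 1. PPARD (ENSG00000112033, chr6:35342558-35428178) encodes the widely expressed PPAR that promotes fat oxidation in many tissues. It measured 32.4 and 31.5 CPM with the mimic against 32.5 and 36.6 CPM in the control, with a log2 fold change of -0.11 (95% interval -0.31 to 0.08). The groups were separate by the gap between 32.4 and 32.5 CPM. Control library 2 was the high one, and without it the log2 fold change of PPARD was -0.03, while without control library 1 it was -0.20.

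The differences of PPARG and PPARA had opposite signs, so their ratio was taken within each library, where the scaling between libraries cancels. Per kilobase of exon, PPARG stood at 1.34 and 1.22 times PPARA in mimic libraries 1 and 2, against 1.57 and 1.61 times in control libraries 1 and 2. The ratio averaged 1.28 ± 0.0865 with the mimic against 1.59 ± 0.0267 in the control libraries (mean and SD of 2 libraries per group), and the groups did not overlap. With the longest coding transcript as length it ran from 2.06 to 2.71, again with both mimic libraries below both controls. The pair was chosen after its values were seen. With 2 libraries against 2, the smallest p that a two-sided exact permutation test can give is 0.333, so no test of this ratio was made.

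**Figure D2:**
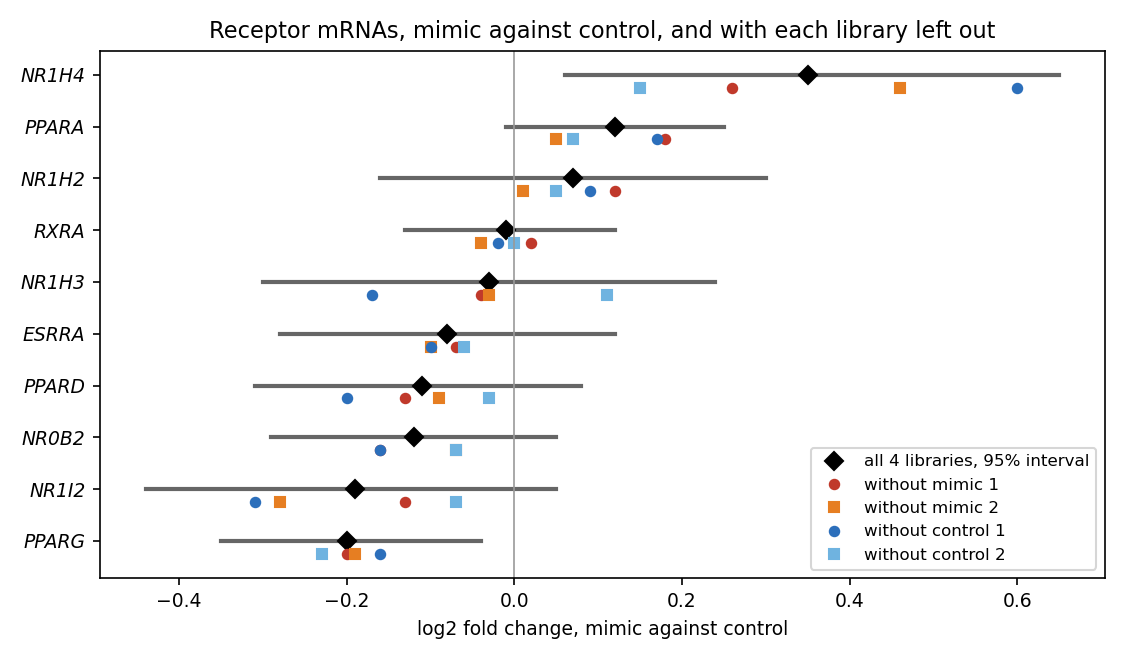
Log2 fold change of each receptor, mimic against control (horizontal axis; black diamonds with 95% intervals from edgeR, n = 2 libraries each), and the value with each library left out (coloured marks below). The interval stays off 0 only for NR1H4 (0.06 to 0.65) and PPARG (-0.35 to -0.04), neither of which passed after adjustment, and the marks of NR1H4 spread from 0.15 to 0.60.

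Among the bile acid receptors, NR1H4 (ENSG00000012504, chr12:100473866-100564414) encodes FXR, which represses bile acid synthesis and raises bile acid export. It had the largest fold change and the widest spread of the 10. Its counts were 298 and 319 in mimic libraries 1 and 2, against 275 and 192 in control libraries 1 and 2, or 19.5, 17, 16.4 and 11.9 CPM. The groups did not overlap, but mimic library 2 and control library 1 lay close together, with counting intervals of 15.2 to 19.0 and 14.5 to 18.4 CPM. Control library 2 stood apart, at 10.3 to 13.7 CPM. The levels were 18.2 ± 1.75 CPM with the mimic against 14.1 ± 3.13 CPM in the control libraries (mean and SD of 2 libraries per group). The NR1H4 log2 fold change was 0.35, with SE 0.14 and 95% interval 0.06 to 0.65 (edgeR, adjusted p = 0.417). Without control library 2 it was 0.15 and without mimic library 1 it was 0.26, while without control library 1 it was 0.60. The order of the 4 libraries in NR1H4 was that of principal component 1 over all genes; whether the difference follows the treatment or that axis was not tested.

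NR0B2 (ENSG00000131910, chr1:26911489-26913975, minus strand) encodes SHP, a receptor without a DNA-binding domain that FXR induces and that shuts down bile acid synthesis by blocking other receptors. It measured 43.2 and 40.7 CPM with the mimic against 44.1 and 46.7 CPM in the control. The mimic libraries lay below the controls by a narrow margin, and the log2 fold change was -0.12 (95% interval -0.29 to 0.05, adjusted p = 0.707, edgeR). It was -0.07 without mimic library 2 or without control library 2. Per kilobase, NR0B2 stood at 6.97, 7.51, 8.47 and 12.3 times NR1H4 in the order mimic library 1, mimic library 2, control library 1, control library 2. The ratio was thus highest in control library 2, where NR1H4 was lowest.

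Among the oxysterol receptors, NR1H2 (ENSG00000131408, chr19:50376457-50383388) encodes LXR beta, found in most tissues, and NR1H3 (ENSG00000025434, chr11:47248300-47269033) LXR alpha, richest in liver, fat and macrophages. NR1H2 measured 20.4 and 22 CPM with the mimic against 20.6 and 19.9 CPM in the control, and NR1H3 15.9 and 15.8 against 14.6 and 17.8 CPM. The groups overlapped in both genes. Their log2 fold changes were 0.07 (95% interval -0.16 to 0.30) for NR1H2 and -0.03 (-0.30 to 0.24) for NR1H3. Without mimic library 2 the value of NR1H2 was 0.01, and without mimic library 1 it was 0.12. NR1H3 stood at 0.11 without control library 2, with the sign turned, and at -0.17 without control library 1. Per kilobase of exon NR1H2 exceeded NR1H3 by 1.36 to 1.70 times across the 4 libraries.

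NR1I2 (ENSG00000144852, chr3:119782101-119818487) encodes PXR, the sensor of foreign compounds that induces drug-metabolising enzymes and transporters. It measured 18.2 and 20.3 CPM with the mimic against 20.3 and 24.0 CPM in the control. Mimic library 1 was the low value and control library 2 the high one, while mimic library 2 and control library 1 stood together. The log2 fold change was -0.19 (95% interval -0.44 to 0.05, adjusted p = 0.648, edgeR), and -0.07 without control library 2 but -0.31 without control library 1.

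RXRA (ENSG00000186350, chr9:134326455-134440585) encodes the RXR that hepatocytes use most, the shared partner of the PPARs, LXRs, FXR and PXR. It was the steadiest of the 10, with 95.4 and 99.4 CPM in the mimic against 97.3 and 98.7 CPM in the control. Its difference was -0.01 on the log2 scale (95% interval -0.13 to 0.12), so a rise above 1.09-fold or a fall below 0.911 of the control level lay outside the interval. ESRRA (ENSG00000173153, chr11:64305524-64316743) encodes the oestrogen-related receptor alpha, an orphan receptor that works with the coactivator PGC-1 alpha on mitochondrial genes. It measured 25.7 and 26.2 CPM with the mimic against 27.1 and 27.9 CPM in the control. The groups did not overlap, yet the log2 fold change was only -0.08 (95% interval -0.28 to 0.12). An antisense gene, TRMT112, covers 9.37% of the ESRRA exon sequence, so a part of that count is uncertain where counting ignored strand (its setting was not given here). The corresponding shares were 4.17% opposite ACP2 for NR1H3 and 4.07% on the same strand for NR1I2, and 0% for the other 7.

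RXRs were also compared as a pool with the receptors that need them. RXRB, which encodes a second RXR, stood at 11.3 and 11.8 CPM per kilobase of exon in the mimic against 12.3 and 14.6 in the control, above RXRA in every library on that scale. It did not pass the test (log2 fold change -0.22, 95% interval -0.39 to -0.04, adjusted p = 0.412, edgeR), and stood at -0.34 without control library 1. That value compares the mimic with control library 2 alone, where RXRB was highest. Control library 1, at 12.3, lay closer to the mimic libraries. RXRG had 0 counts in all 4 libraries. The 7 partners PPARA, PPARD, PPARG, NR1H2, NR1H3, NR1H4 and NR1I2 summed to 43.3, 43.8, 44.3 and 44.1 CPM per kilobase in the order mimic library 1, mimic library 2, control library 1, control library 2. Divided by the sum of the RXRs, this gave 2.18 and 2.10 with the mimic against 2.10 and 1.88 in the control. The partner sum thus varied little, although the differences of its members had both signs. These ratios rest on the length taken for RXRA. With the longest coding transcript the partners stood at 1.04 and 1.00 times the RXRs with the mimic against 1.04 and 0.977 in the control, and RXRB lay below RXRA in every library, at 0.294 to 0.369 times its level. On that scale the partner ratio overlapped between the groups.

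**Figure D3:**
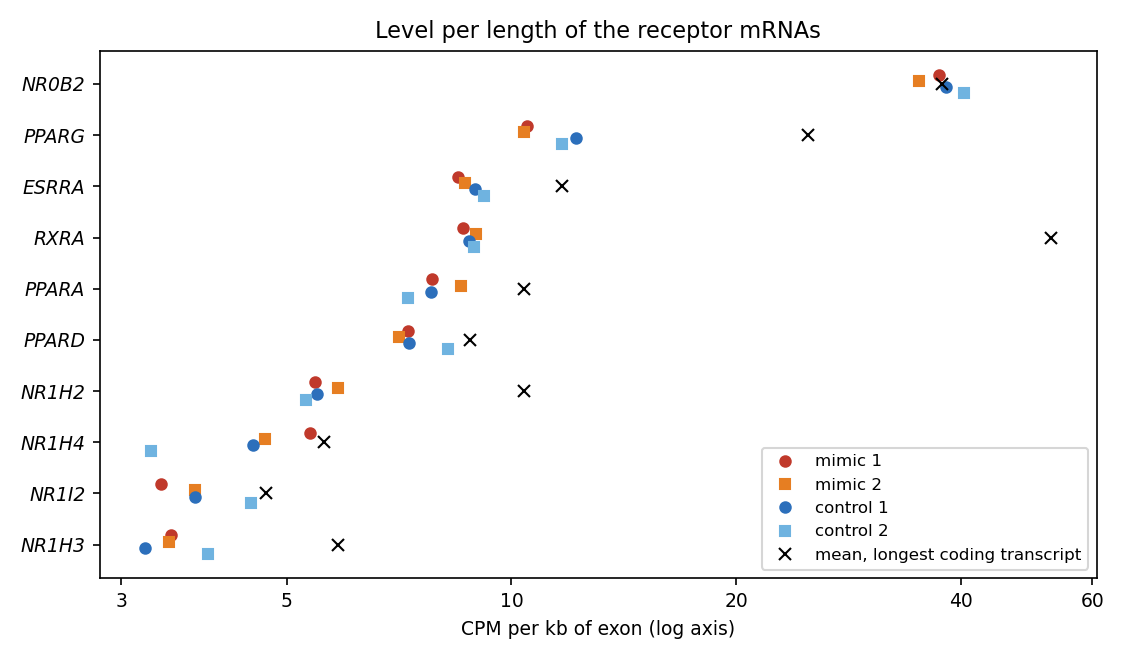
Level of each receptor per kilobase of exon (horizontal log axis, CPM per kb) in the 4 libraries, ordered by the mean over libraries; crosses give the mean with the longest coding transcript as the length. NR0B2 leads at 35.2 to 40.4 and NR1H3 is last at 3.23 to 3.92, and RXRA depends most on the length used (8.82 against 52.9).

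Levels of different genes were compared per kilobase, with the union of each gene's exons in GENCODE release 29 as the length. NR0B2 was highest, at 37.8 ± 2.15 CPM per kilobase (mean ± SD, n = 4 libraries), and ranked first in every library. PPARG followed with 11.2 ± 0.903, then ESRRA with 8.82 ± 0.318, RXRA with 8.82 ± 0.162, PPARA with 7.86 ± 0.525 and PPARD with 7.46 ± 0.507. The lower levels were those of NR1H2 with 5.52 ± 0.234, NR1H4 with 4.46 ± 0.866, NR1I2 with 3.85 ± 0.45 and NR1H3 with 3.53 ± 0.286. Of the 9 pairs of neighbours in this order, 5 had overlapping ranges over the 4 libraries: ESRRA with RXRA, PPARA with PPARD, NR1H2 with NR1H4, NR1H4 with NR1I2, and NR1I2 with NR1H3. In 4 of these pairs the order changed between libraries. NR1H2 lay above NR1H4 within each of the 4 libraries, by the least in mimic library 1 (5.45 and 5.37 CPM per kilobase). The order also depends on the length: with the longest coding transcript, RXRA came first at 52.9 ± 0.97, since its listed coding transcript has 1.85 kb and the union of its exons 11.08 kb. NR0B2 and PPARG came next on that scale, at 37.8 and 25.

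Nuclear receptors form a family of 48 genes in humans, and the 38 outside these 10 were measured on the same scale. Of them 22 were tested and 16 stayed under the filter on low counts, 3 with 0 counts in all libraries. None of the 22 passed, with 6 at an unadjusted p under 0.05 and a median log2 fold change of -0.02, beside 2 of 10 and -0.06 for the lipid sensors and 9.43% and 0.0011 over all genes tested. RORA, a receptor of the circadian and lipid network, came closest, with 113 and 110 CPM in the mimic against 97.1 and 84.5 CPM in the control (log2 fold change 0.29, adjusted p = 0.0599, edgeR). Its log2 fold change was 0.31 without mimic library 2 and 0.40 without control library 1. Both values leave out the library of a group that lay nearest the other group, and control library 2 was the lowest. THRA, a thyroid hormone receptor, stood at 0.28, and NR6A1, the germ cell nuclear factor, at -0.16. Per kilobase, NR0B2 exceeded HNF4A, the master regulator of hepatocyte genes, with means of 37.8 and 34.1 and ranges that overlapped. The third was NR2F6, an orphan receptor, at 26.5, and its log2 fold change was -0.15.

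**Figure D4:**
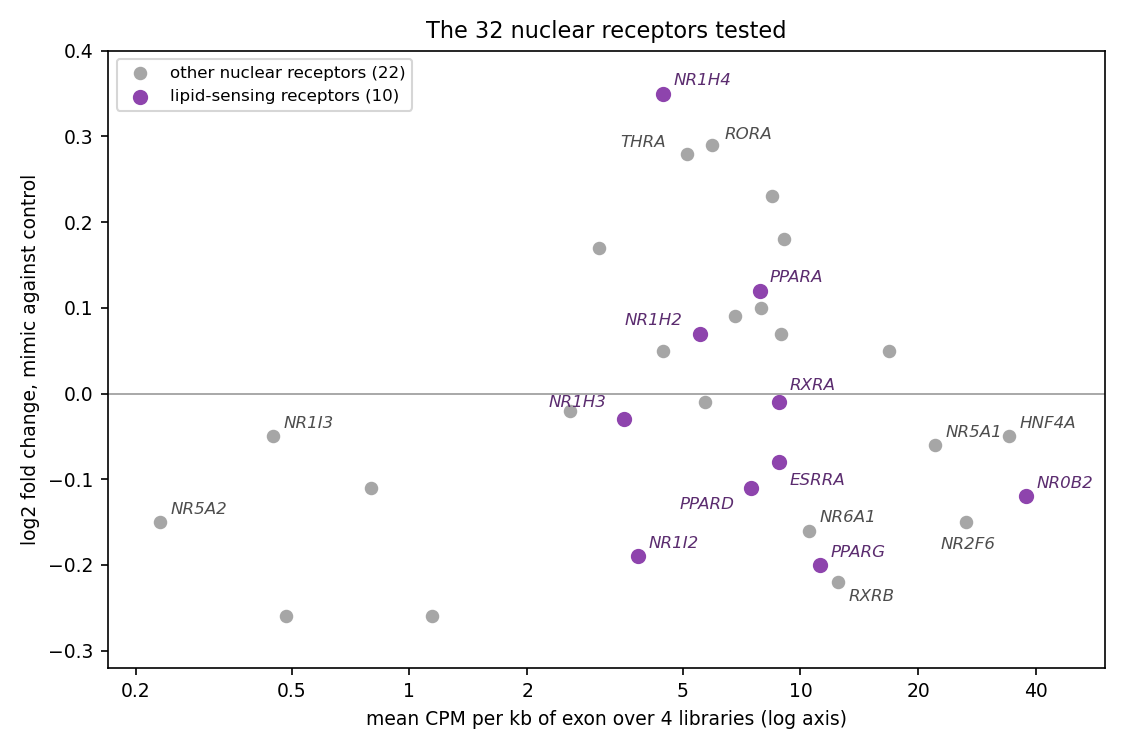
Log2 fold change, mimic against control (vertical axis), against the mean level over 4 libraries (horizontal log axis, CPM per kb of exon) for the 32 nuclear receptors tested; purple points are the 10 lipid sensors and grey points the 22 others. NR1H4 has the largest fold change at 0.35, and the other 9 lipid sensors lie between -0.20 and 0.12, within the range of the grey points (-0.26 to 0.29).

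A few further receptors were named after their values were seen. NR1I3, which encodes CAR, the second xenobiotic sensor, stood at 0.994 to 2.02 CPM in all libraries. Per kilobase its mean was 0.449, below the 3.85 of NR1I2. NR5A2, which encodes LRH-1, the receptor through which SHP blocks bile acid synthesis, had a mean of 0.23 CPM per kilobase. NR5A1, its close paralog best known from steroid-producing glands, had 22.1.

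Coactivators and corepressors, the proteins through which these receptors turn genes on or off, were measured as a list of 23 genes, all of them tested. None passed, 1 lay under an unadjusted p of 0.05, and the median log2 fold change was 0.06, with 15 above and 8 below 0. Over all 14464 genes tested, 7284 lay above and 7180 below 0, and 9.43% lay under that p. The histone acetyltransferase CREBBP measured 227 and 220 CPM with the mimic against 212 and 190 CPM in the control (log2 fold change 0.15, 95% interval 0.03 to 0.26). Without control library 1 its log2 fold change was 0.23. That value compares the mimic with control library 2 alone, the lowest of the 4 libraries for CREBBP. Control library 1 lay closer to the mimic libraries. The deacetylase SIRT1 stood at 0.17, and the corepressor subunits TBL1X and TBL1XR1 at 0.11 each. The arginine methyltransferase PRMT1 and the mediator subunit MED1 were the most abundant per kilobase, at 34.2 and 29.4 CPM per kb, with log2 fold changes of -0.04 and 0.06.

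Target genes of each receptor were read from lists that share some members, and the LXR and FXR lists hold NR1H3 and NR0B2 themselves. Of 34 listed PPAR targets 29 were tested and none passed, with 3 higher and 1 lower at an unadjusted p under 0.05 and a median of -0.02. CPT1A, the gate of mitochondrial fatty acid import, measured 94.2 and 92.6 CPM with the mimic against 84.4 and 79.7 CPM in the control (log2 fold change 0.19, 95% interval 0.05 to 0.32). CREB3L3, a hepatic transcription factor that works with PPAR alpha, was at 0.21 and the acyl-CoA synthetase ACSL1 at 0.17, while the alcohol dehydrogenase ADH4 was at -0.52. Without control library 1, CREB3L3 and ACSL1 stood at 0.35 and 0.30. Those values compare the mimic with control library 2 alone, the low one in both genes (44.8 and 65.9 CPM). Control library 1, at 53.7 and 78.7 CPM, lay closer to the mimic (57.0 and 57.0 CPM for CREB3L3, 82.0 and 80.5 CPM for ACSL1). The lipid droplet protein PLIN2 and the fatty acid binding protein FABP1, the most abundant per kilobase, had log2 fold changes of -0.04 and 0.04. The classical targets CYP4A11 and CYP4A22 had 0 counts in every library, and PDK4 and FGF21 were under the filter, with at most 9 and 1 counts; these were named after their values were seen.

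LXR targets showed 0 of 21 tested genes past the threshold, 2 lower at an unadjusted p under 0.05 and a median of -0.02. FASN, the fatty acid synthase, measured 728 and 751 CPM with the mimic against 769 and 824 CPM in the control (log2 fold change -0.11, 95% interval -0.20 to -0.02). ABCA1, the cholesterol exporter that LXRs induce most directly, had a log2 fold change of -0.13, with 186 and 206 CPM in the control and 180 and 179 CPM with the mimic. Without control library 1 FASN stood at -0.15 and ABCA1 at -0.20. Those values compare the mimic with control library 2 alone, the high one in both genes. Control library 1 lay closer to the mimic libraries. The phosphodiesterase-like SMPDL3A and the sterol transporter ABCG5 stood at -0.22 and -0.20. APOE and the desaturase SCD were the most abundant per kilobase, with log2 fold changes of -0.02 and 0.03.

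FXR targets held 22 tested genes of 26, none past the threshold, 1 higher at an unadjusted p under 0.05, and a median of 0.03. The list joins NR0B2, which FXR induces, with CYP7A1, of the bile acid synthesis that FXR represses. Its median is therefore no measure of FXR activity. Complement C3 measured 3514 and 3549 CPM with the mimic against 3455 and 3247 CPM in the control (log2 fold change 0.08). BAAT, which conjugates bile acids, was at -0.27, APOC3 at -0.21 and APOA1 at 0. Mimic library 1 was the low one for BAAT, at 13.2 CPM, against 18.4 to 19.4 CPM in the other libraries. CYP7A1, the rate-limiting enzyme of bile acid synthesis, was at 0.718 and 0.639 CPM with the mimic against 0.357 and 0.186 CPM in the control, and the 95% interval of its log2 fold change ran from -0.17 to 2.73. The bile salt export pump ABCB11, a defining FXR target, had at most 2 counts in any library, and FGF19 at most 5; both were named after their values were seen.

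PXR and CAR targets held only 13 tested genes of 24, and 4 of the other 11 had 0 counts in every library. None passed, and 7 of 13 lay under an unadjusted p of 0.05, 5 higher and 2 lower, where 9.43% of all tested genes did. The median log2 fold change was 0.11, beside 0.0011 over all genes. AKR1B10, an aldo-keto reductase, measured 159 and 134 CPM with the mimic against 125 and 111 CPM in the control (log2 fold change 0.30, adjusted p = 0.0688, edgeR). The retinal dehydrogenase ALDH1A1 was at 0.14 and the fetal cytochrome CYP3A7, with 41.7% of its exon sequence shared with 2 annotated genes, at 1.28, while the transporter ABCC3 was at -0.22. AKR1B10 stood at 0.43 without mimic library 2. Without control library 1 it stood at 0.40 and ABCC3 at -0.32. Each of these values leaves out the library of its group that lay nearest the other group. ABCC3 measured 85.7 and 88.7 CPM with the mimic against 93.7 and 109 CPM in the control. ABCC2, the canalicular exporter, was the most abundant per kilobase after ALDH1A1, with a log2 fold change of 0.03. NR1I2 itself had a log2 fold change of -0.19. The main adult PXR target CYP3A4 had 2 to 5 counts per library, while CYP2B6, a CAR target, had counts of 3, 7, 17 and 13 in the order mimic library 1, mimic library 2, control library 1, control library 2 (log2 fold change -1.61, adjusted p = 0.417, edgeR). Both were named after their values were seen.

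Targets of ESRRA, a list of mostly mitochondrial genes that also holds the transcription factor GABPA, the cytosolic enzyme MDH1 and ESRRA itself, showed 0 of 25 tested past the threshold and 0 at an unadjusted p under 0.05 in edgeR. Their median log2 fold change was -0.03, and none lay further from 0 than 0.15. The dehydrogenase subunit OGDH stood at 0.15, NDUFS1 of complex I at 0.08, and the cytochrome oxidase subunits COX8A and COX5B at -0.15 and -0.11. The ATP synthase subunit ATP5F1B, the most abundant per kilobase, measured 508 and 514 CPM with the mimic against 515 and 518 CPM in the control.

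**Figure D5:**
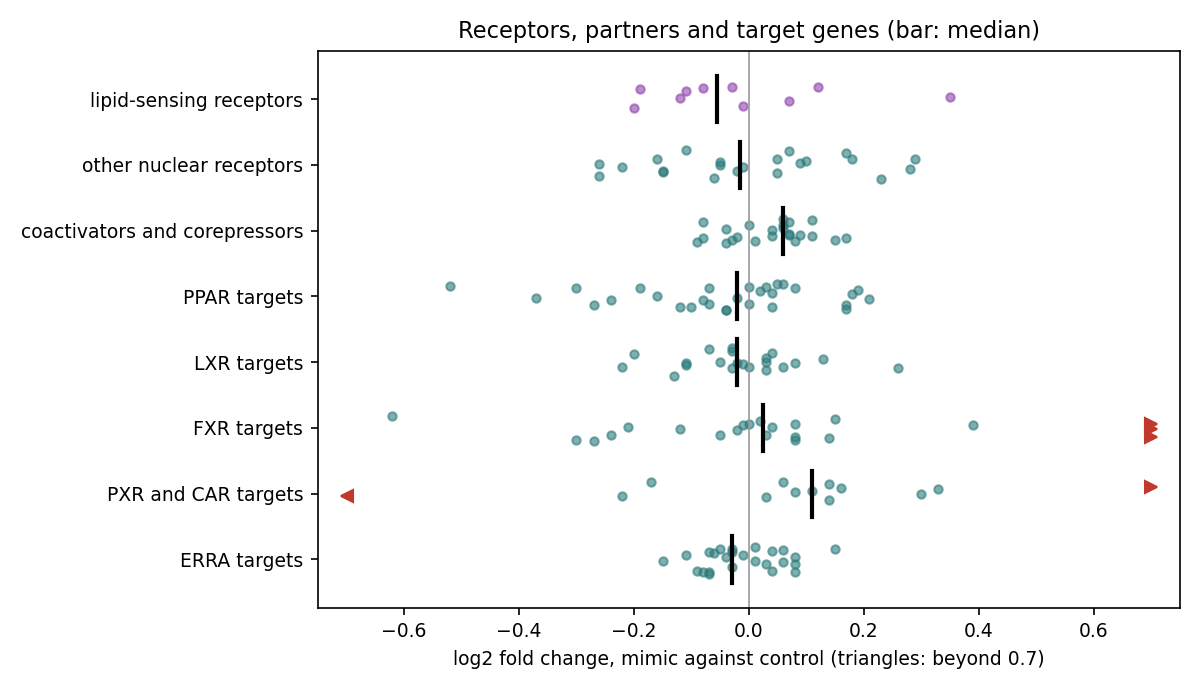
Log2 fold change, mimic against control (horizontal axis), of each tested gene in the receptor, cofactor and target lists (rows); black bars are medians and red triangles mark genes beyond 0.7. Medians lie between -0.06 and 0.11, and no gene drawn passed the test after adjustment over 14464 genes.

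No marker of another cell type passed the test, and the part of these levels in the receptor values was not tested. Among hepatocyte markers albumin (ALB) rose by 0.23 on the log2 scale (edgeR, adjusted p = 0.0109), a call lost in DESeq2 (adjusted p = 0.342) and with no filter on low counts (0.754). TTR stood at 0.26, and at 0.31 without control library 1, and APOA2 stood at -0.07. For TTR control library 1 (68.0 CPM) lay nearer the mimic (79.5 and 78.5 CPM) than control library 2 (63.7 CPM). Of 10 stellate cell and fibroblast markers 3 were tested, with LUM, DCN and COL1A2 at 0, a summed level of 36.0 and 36.3 CPM in the mimic against 30.8 and 35.5 CPM in the control, and PDGFRB and ACTA2 at log2 fold changes of 0.18 and 0.07. Of 11 macrophage and leukocyte markers only LYZ was tested (0.09; an antisense gene covers 34.0% of its exon sequence), with PTPRC, CD163 and MARCO at 0 and sums of 1620 and 1530 against 1478 and 1474 CPM. Of 8 endothelial markers 4 were tested, with KDR and TEK at 0 and sums of 12.2 and 13.4 against 11.7 and 10.9 CPM; VWF, LYVE1 and PECAM1 stood at 1.30, 0.77 and -0.01. Of 6 cholangiocyte markers 3 were tested, with KRT7 at 0, sums of 931 and 962 against 951 and 1035 CPM, and KRT19, SOX9 and EPCAM at -0.24, 0.04 and 0.06. KRT19 passed with library totals (-0.26) and upper-quartile scaling (-0.25). It stood at -0.27 without mimic library 2 and at -0.35 without control library 1. Both values leave out the library of a group that lay nearest the other group. KRT19 measured 352 and 366 CPM with the mimic against 390 and 459 CPM in the control. Of 7 adipocyte markers only CFD was tested (-0.08), with ADIPOQ, LEP and FABP4 at 0 and sums of 1.63 and 2.02 against 1.31 and 2.55 CPM.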

How the data were processed

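RNA was sequenced from 4 libraries of lipid-loaded Hep G2 cells, 2 per treatment, with an RNA integrity number above 9.5 and 500 ng of RNA as input per the labels' protocols. The authors deposited raw read counts per Ensembl gene; the tools named, per the submitters' processing notes, are HTSeq, STAR, Bowtie2 and FastQC, and the build is GRCh38.p14. Versions, gene annotation and HTSeq's strand option were not given in the sources used here. The 5 HTSeq summary entries, 23.1% to 24.1% of each library's total, entered neither library sizes nor tests.

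The tests on these counts used edgeR 4.0.16 (R 4.3.3): filterByExpr (minimum count 10, minimum total 15), TMM scaling, and the quasi-likelihood F test (legacy = FALSE) with Benjamini-Hochberg adjustment over all 14464 genes tested and a threshold of 0.05. Standard errors and 95% intervals were derived from the F statistic and its degrees of freedom. Levels per kilobase are CPM divided by the exon union of GENCODE release 29, and Poisson intervals cover counting error only, since the labels name no molecular identifiers. Symbols came from a table that matched 62590 of 62655 IDs; positions came from RefSeq (GRCh38.p14), as did start-site sequences, listed for 9 of the 10 receptors.

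The receptors and gene lists were chosen with earlier results of these data known. Named were all receptors, and from each list every called gene, the 4 with the smallest p (2 for cell type markers) and the 2 highest per kilobase. The edgeR steps were tested on simulated data. Alternatives were DESeq2 1.42.0, limma voom (limma 3.58.1), legacy = TRUE, other scalings and filters, each library left out, a block on the column number and, added after seeing the data, the longest coding transcript as length for levels and ratios.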

Additional observations from a re-analysis of the deposited data

How the results depend on the processing

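The number of all genes called, 50, was 0 with no filter on low counts and 306 with the replicate block on the column number, and 20 to 424 with each library left out. The other settings gave 37 (DESeq2) to 51 (mean of at least 10 CPM). Same-numbered columns did not deviate together (r = 0.023 over 14464 genes), so the number was not taken to pair samples. Of the 10 receptors 0 were called under each of these settings, except 1 (NR1H4) without control library 1, so 0 to 1 with each library left out; DESeq2 gave 8 of them no adjusted p. The receptors' median log2 fold change was -0.13 to -0.01 with each library left out. Of 120 recomputed receptor values 3 changed sign, all with a library left out. RXRA ran from -0.04 to 0.02 and NR1H3 from -0.17 to 0.11 with each library left out. Of 617 values of the 52 other named genes 13 changed sign, all with a library left out, and their ranges there were -0.05 to 0.11 for ABCC2, -0.03 to 0.03 for APOA1, -0.66 to 0.30 for CFD, -0.11 to 0.08 for PECAM1, -0.10 to 0.20 for ACTA2, -0.01 to 0.08 for FABP1, -0.07 to 0.04 for APOE, -0.10 to 0.01 for HNF4A and -0.09 to 0.02 for PRMT1. Among the same 617 values 22 gained a call and 2 lost one. ALB lost its call in DESeq2 (0.342) and with no filter (0.754), both adjusted p. Without the filter, 1514 genes still lay under an unadjusted p of 0.05. DESeq2 gave an adjusted p to 3282 genes only. The level per kilobase depends on the exon length used, above all for RXRA (8.82 or 52.9). Depth limits the targets with a few counts per library, and 2 libraries per group limit every interval.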
